A study of Mus musculus with 4 samples.

Results

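The genes described are members of the Kruppel-like factor (KLF) family, Klf2, Klf3, Klf4, Klf5, Klf6, Klf9, Klf10, Klf11, Klf13 and Klf15, each taken from array features (transcript clusters) that the platform annotation pairs with that symbol alone. Of the 10, 9 were measured, each by 1 cluster, among 14806 genes with such a cluster. Klf9 shared its cluster with another gene and has no value here. No member was listed at 0 on any array, and no filter on low values was applied.

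KLFs are transcription factors that bind GC-rich and CACCC-containing DNA through zinc fingers at their C-terminal end. Within the larger Sp/KLF family, one KLF branch, with Klf2, Klf4, Klf5 and Klf6, acts mostly as activators. Another, with Klf3, recruits the corepressor CtBP, and the branch of Klf9, Klf10, Klf11 and Klf13 recruits the corepressor Sin3. In muscle, KLFs are known for roles in myoblast fusion (Klf2 and Klf4, downstream of the kinase ERK5), in control of the creatine kinase gene Ckm (Klf3) and in amino acid and glucose metabolism (Klf15).

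RNA came from C2C12, a mouse myoblast line that leaves the cell cycle and fuses into multinucleated fibres when serum is lowered, on 4 Affymetrix arrays. The 2 differentiation arrays came from cells moved at full confluency to 2% horse serum and collected 24 h later, and the 2 growth arrays from cells in 10% fetal bovine serum at 60 to 70% confluency. The labels name no genetic change and no agent besides the medium, the arrays of a group are called biological replicates in the series' design text, and with a single line nothing here speaks for other myoblasts. Serum kind, serum amount and cell density differed together with the condition, so their effects cannot be told apart from differentiation.

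Values are PLIER intensities, in which the probes of a cluster are combined into 1 linear number per array. They allow a comparison of 1 gene between arrays, not of levels between genes. Ranges over marker genes below therefore only list values, and in the sums the brightest clusters weigh most. A change is the log2(intensity + 16) of differentiation minus that of growth, so changes of dim genes are understated, and is given with the standard error (SE), 95% interval and adjusted p of limma (Benjamini-Hochberg over 16658 clusters, threshold 0.05). Median intensities were 174 and 170.0 on the differentiation arrays and 168 and 177 on the growth arrays, and the median change of all clusters was -0.01. In this bulk RNA, fewer expressing cells and less RNA per cell cannot be told apart. The myogenic genes Myod1, Myog, Myf5 and Des, which mark the labelled cell line, had intensities of 647 to 3377. Of these 4, 2 were higher and 0 lower (8.64% and 7.52% of all clusters). Myog had a change of 1.38 ± 0.18 SE (limma adjusted p = 0.00237) and Myod1 of 0.89 ± 0.18 (0.0155). Myod1 lost its call with an offset of 1 (0.0605). The 4 endothelial markers tested (Pecam1, Cdh5, Kdr, Tek) had intensities of 13.9 to 119, summed to 230.1 and 269.9 on the differentiation arrays and 285 and 191 on the growth arrays, and none passed the threshold in the limma fit (1 higher and 0 lower at an unadjusted p under 0.05). Of 4 adipocyte markers 0 were higher and 1 lower (Fabp4), beside 8.64% and 7.52% of all clusters. The 4 summed to 355 and 308 on the differentiation arrays and 454 and 401 on the growth arrays. At an unadjusted p under 0.05 (limma) 1 was higher and 2 lower. Plin1, the largest part of the sums, had 233 and 212 on the differentiation arrays, against 357 and 298 on the growth arrays. Its change was -0.52, while Cidec (0.52) and Adipoq (0.42) lay the other way. Of 4 macrophage markers 0 were higher and 2 lower (Ptprc and Cd68), beside 8.64% and 7.52% of all clusters. The 4 summed to 239 and 244 on the differentiation arrays and 432 and 361 on the growth arrays. At an unadjusted p under 0.05 (limma) 0 were higher and 3 lower. All 4 had both differentiation arrays below both growth arrays, as did 30.1% of all clusters. Fabp4 was dim, at 25.95 and 12.53 on the differentiation arrays and 46.51 and 41.88 on the growth arrays. Ptprc was dim too, at 5.67 and 4.87 on the differentiation arrays and 28.25 and 21.4 on the growth arrays. Cd68 was brighter, at 78.5 and 73.2 on the differentiation arrays and 159.8 and 122.9 on the growth arrays. Neither of the 2 osteoblast markers passed (limma; 1 higher and 0 lower at an unadjusted p under 0.05). No marker was at 0, and the part of such signal in the results was not tested.

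Short stretches upstream of the members are shown first, each with a match to the letters of a known kind of binding site. Promoters of 7 members (Klf2, Klf3, Klf4, Klf6, Klf11, Klf13 and Klf15) were found in RefSeq's table (build GRCm38.p6), and the 250 bases before each annotated start were searched on both strands. The deposited values were made on the build mm9, and no array position is given. The first window holds the MEF2 site of Klf2, a gene whose induction by ERK5 is known to run through MEF2 factors. The next 3 hold the GC box (GGGCGG, or CCGCCC on the other strand), a binding site of Sp and KLF proteins, nearest the start of each member that passed the threshold. The last 2 hold the E-box CACGTG of Klf4 and Klf11. Each is 30 bases, written 5′ to 3′ on the gene's strand, with the matched letters in capitals.
Klf2 MEF2 site, chr8:72318934-72318963, plus strand: tataccgcggCTAAATTTAGgctgagcccg
Klf3 GC box, chr5:64803420-64803449, plus strand: ccctcccagcccGGGCGGctgtggcggctc
Klf4 GC box, chr4:55532559-55532588, minus strand: aagaaaggcaggGGGCGGggcctggcggcg
Klf11 GC box, chr12:24651339-24651368, plus strand: ctccgtggcgccCCGCCCctcccgcgcctc
Klf4 E-box, chr4:55532640-55532669, minus strand: cgcccccgccccCACGTGcgcggagtttgt
Klf11 E-box, chr12:24651145-24651174, plus strand: cccggaccaaaaCACGTGccgccgcccgcc

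The GC box was found in all 7 promoters, whether or not the gene passed the threshold, and in 42.6% of 21263 promoter windows of protein-coding genes. These 7 windows were GC-rich, at 64.8 to 78.4% G and C against a median of 55.6% in coding windows. The shares given for every motif are over all coding windows and were not matched for G and C content. CACGTG was found in 4 of the 7 (Klf4, Klf6, Klf11 and Klf15), against 6.63% of coding windows. The MEF2 site, searched by a consensus that allows alternative bases at some positions, was found in Klf2 alone of the 7. There it runs from 118 to 109 bases before the start. Such a site was found in 2.61% of coding windows. CACCC was found in 4 of 7 (54.2% of coding windows) and TGACG, the core of the cAMP response element, in 4 of 7 (20.2%). The CArG box, bound by SRF and searched by a consensus of the same kind, was found in 0 of 7 (1.39%). A pair of GC boxes overlapped in Klf4 and in Klf11, and a GC box shared a base with a CACCC match in Klf3 and in Klf13. These matches describe letters in a window, and binding was not measured.

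Klf4, Klf11 and Klf3 were higher in differentiation, and none of the other 6 members passed the threshold in either direction. The share of all clusters called was 16.2%, with 8.64% higher and 7.52% lower, and 3 of 9 members were called higher and 0 lower (limma; at an unadjusted p under 0.05 the counts were 4 higher and 1 lower). The members' median change was 0.50, against -0.01 over all clusters. The members were chosen with earlier results of these data known, and over all 15 measured KLFs the median was 0.02. The arrays of the 2 conditions did not overlap for 7 of the 9 members, against 60.8% of all clusters. Differentiation was the higher for 5 of them (30.8% of clusters) and the lower for 2 (30.1%). Only single members, not the family as a unit, were tested.

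**Figure D1:**
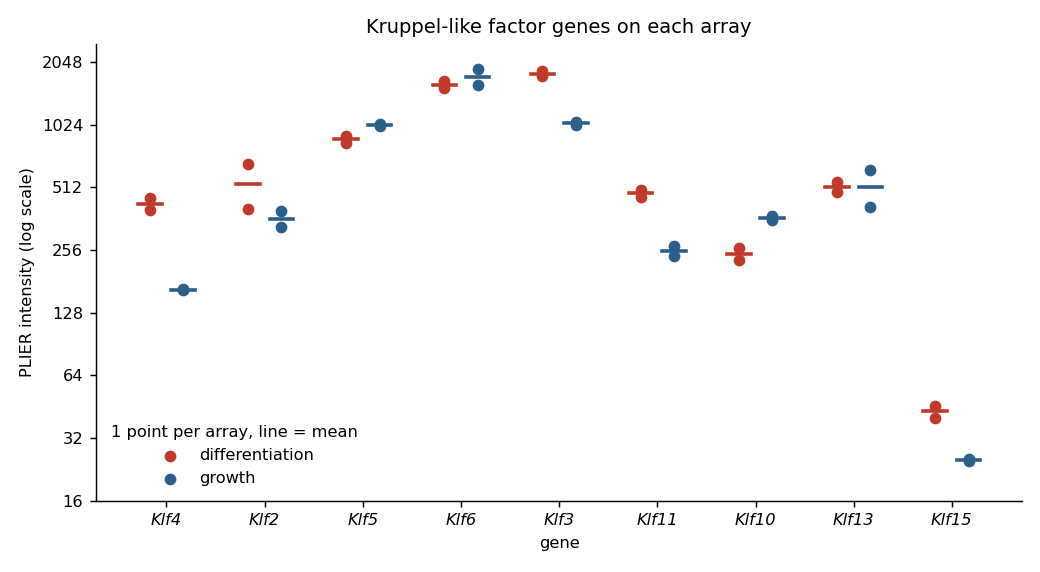
PLIER intensity (log scale) of each of the 9 measured Kruppel-like factor genes on the 2 differentiation arrays (red) and the 2 growth arrays (blue), with a line at each mean. The differentiation points of Klf4, Klf3 and Klf11 lie well above the growth points, those of Klf10 lie below, and the points of Klf6 and Klf13 overlap. Heights of different genes are not comparable.

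Among the activators, Klf4, a serum- and stress-responsive factor best known for cell cycle arrest in epithelia and for reprogramming to pluripotency, had the largest change of the family. Its intensity was 400.0 and 456 on the differentiation arrays, against 165 and 166 on the growth arrays. The growth arrays nearly coincided, and both differentiation arrays were higher by more than the gap between them. The means were 428 ± 39.6 in differentiation and 165 ± 0.438 in growth (SD, n = 2 each), a 2.59-fold ratio, and the log2 change was 1.29 ± 0.18 SE with an interval of 0.87 to 1.71 (limma adjusted p = 0.00316). In absolute size this change exceeded that of 95.9% of all clusters. Klf4 alone among the members kept its call in each of the 12 alternative settings, with a change of 1.20 to 1.38.

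Klf2, the paralog known for its role in endothelial and lymphocyte quiescence, was 402 and 663 on the differentiation arrays, against 393 and 331 on the growth arrays. One differentiation array was close to the growth arrays and the other far above them, and the log2 gap of 0.70 between the differentiation arrays was larger than the mean change. That change was 0.50 ± 0.26 SE, with an interval of -0.09 to 1.09 (limma adjusted p = 0.215). Leaving out differentiation replicate 2 lowered it to 0.15, and leaving out differentiation replicate 1 brought it to 0.85. The data therefore allow both no change and a change of about the size of that in Klf3. Whether the changes of Klf2 and Klf4 differ from each other was not tested.

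Klf5, a growth-promoting factor of epithelium and smooth muscle that is also required for myoblast differentiation in mice, had intensities of 836 and 907 on the differentiation arrays, against 1012 and 1033 on the growth arrays. The arrays did not overlap, but the change was small, at -0.23 ± 0.18 SE with an interval of -0.64 to 0.18 (limma adjusted p = 0.402). Klf6, an immediate early factor induced by injury and TGF-beta, was 1657 and 1535 on the differentiation arrays, against 1587 and 1894 on the growth arrays. Its groups overlapped, with a change of -0.12 ± 0.19 SE and an interval of -0.56 to 0.32 (limma adjusted p = 0.688). For Klf6 the sign was not settled, since the change was 0.01 without growth replicate 2.

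Klf3, the CtBP-recruiting factor first described in erythroid cells and known to act at the Ckm promoter in muscle, had intensities of 1853 and 1746 on the differentiation arrays, against 1026 and 1054 on the growth arrays. The 2 arrays of each condition lay close together and the conditions were far apart. The means were 1799.8 ± 75.6 in differentiation and 1040.2 ± 19.9 in growth (SD, n = 2 each), a 1.73-fold ratio, with a log2 change of 0.78 ± 0.18 SE and an interval of 0.37 to 1.19 (limma adjusted p = 0.0227). The change itself ran from 0.74 to 0.82 whichever array was left out, but with 3 arrays the call was lost each time (adjusted p of 0.0596 to 0.121 over the 4 omissions). It was also lost on all 4 arrays with an offset of 1 (adjusted p = 0.0676).

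Among the Sin3-recruiting members the values of Klf11 and Klf10, both known as early genes of TGF-beta signalling, lay on opposite sides of 0. Klf11 was 462 and 498 on the differentiation arrays, against 240 and 268 on the growth arrays, so that the lower differentiation array was well above the higher growth array. Its means were 480.1 ± 26.0 in differentiation and 254 ± 20.2 in growth (SD, n = 2 each), a 1.89-fold ratio, with a log2 change of 0.88 ± 0.18 SE and an interval of 0.46 to 1.30 (limma adjusted p = 0.0161). The call was lost without differentiation replicate 1 (adjusted p = 0.0848), differentiation replicate 2 (0.113) or growth replicate 1 (0.0804), and with an offset of 1 (0.0584), while the change stayed between 0.80 and 0.96.

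Klf10 was 262 and 228 on the differentiation arrays, against 358 and 375 on the growth arrays. Both differentiation arrays were below both growth arrays. Its means were 245 ± 23.9 in differentiation and 366 ± 11.9 in growth (SD, n = 2 each), a 0.67-fold ratio, and its change of -0.55 ± 0.18 SE, with an interval of -0.97 to -0.13, missed the threshold (limma adjusted p = 0.0775). It passed when dim clusters were left out (adjusted p of 0.0433 and 0.0418 under the 2 filters) and when limma's variance prior followed intensity (0.0413), and it did not pass in the other 9 alternatives. The 95% intervals of Klf11 and Klf10 do not overlap, though their difference itself was not tested.

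Klf13, a regulator of lymphocyte and heart genes, was 541 and 487 on the differentiation arrays, against 618 and 412 on the growth arrays. The growth arrays enclosed both differentiation arrays, with a log2 gap of 0.57 between them. The change was 0.02 ± 0.23 SE with an interval of -0.51 to 0.55 (limma adjusted p = 0.952), and its sign turned with the array left out, at -0.26 without growth replicate 2 and 0.31 without growth replicate 1.

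Klf15, a glucocorticoid-induced factor that controls amino acid breakdown in muscle, was dim on every array. It had intensities of 40.1 and 45.8 on the differentiation arrays, against 24.8 and 25.5 on the growth arrays, and only 17.5% of clusters had as low a mean or a lower one. Both differentiation arrays were higher, with a 1.71-fold ratio of the means, but at this brightness the offset of 16 weighs on the log2 value. The change was 0.52 ± 0.18 SE with an interval of 0.10 to 0.93 (limma adjusted p = 0.0869), and 0.75 with an offset of 1. Without a detection call in the file, signal of Klf15 cannot be told from background.

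**Figure D2:**
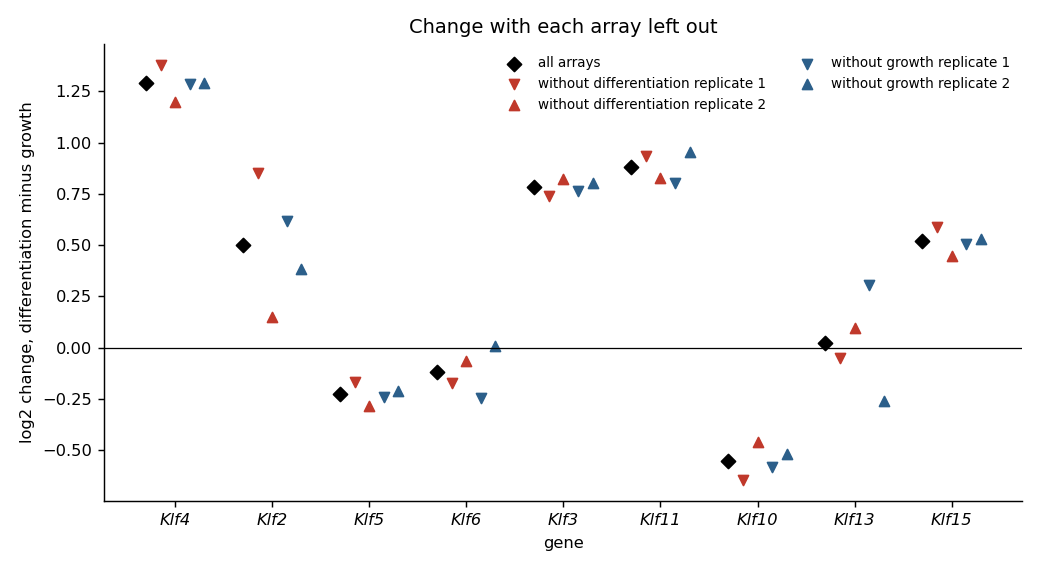
Log2 change (differentiation minus growth) of the 9 measured Kruppel-like factor genes with all 4 arrays (black diamonds) and with each differentiation array (red) or growth array (blue) left out. Klf4, Klf3 and Klf11 stay between 0.74 and 1.38, Klf2 ranges from 0.15 to 0.85, and Klf6 and Klf13 cross 0.

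The rest of the Sp/KLF family was examined through 14 further genes with a cluster of their own, of 16 listed (Klf14 and Sp2 had none). Of these, 1 was higher and 1 lower, again beside 16.2% of all clusters, and the median change was -0.17. The neuronal Sp factor gene Sp4 had intensities of 153 and 177 on the differentiation arrays, against 69.0 and 99.0 on the growth arrays, and a change of 0.87 ± 0.21 SE (limma adjusted p = 0.0302). Sp8, a factor of limb and brain patterning, had 135 and 122 on the differentiation arrays, against 325 and 271 on the growth arrays, and a change of -1.11 ± 0.19 SE (limma adjusted p = 0.00730). The arrays of the groups were apart for both genes. Sp4 lost its call without growth replicate 1 (adjusted p = 0.147), differentiation replicate 1 (0.109) or differentiation replicate 2 (0.173) and with an offset of 1 (0.0919), and Sp8 without differentiation replicate 1 (0.0579) or differentiation replicate 2 (0.0785).

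Sp1, the ubiquitous GC box-binding factor, had intensities of 706 and 688 on the differentiation arrays, against 521 and 482 on the growth arrays, with a change of 0.46 ± 0.18 SE (limma adjusted p = 0.114). Sp5, a Wnt target, had a change of 0.46 ± 0.19 and an adjusted p of 0.137 in the same limma fit. Neither passed, although their arrays did not overlap. Sp3, which binds the same sites as Sp1, had a change of -0.17 ± 0.19, and Sp9, Sp7 (the osteoblast factor osterix) and Sp6 had changes of -0.17, -0.17 and -0.36.

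The 6 remaining KLFs had changes between -0.36 and 0.31 and none passed. Klf8 and Klf12, the CtBP-binding relatives of Klf3, had changes of 0.31 ± 0.20 and 0.31 ± 0.28, and Klf16, a Sin3-binding relative of Klf11, of -0.32 ± 0.19. The activators Klf7 and Klf1, the erythroid founder of the family, had -0.33 ± 0.19 and -0.36 ± 0.22, and Klf17 had -0.16 ± 0.21. By branch, 1 of 6 activators, 1 of 3 CtBP-binding, 1 of 4 Sin3-binding and 0 of 2 other KLF genes were higher. None was lower, beside 8.64% of all clusters higher and 7.52% lower. The branches were not tested against each other. Over all 15 measured KLFs the median change was 0.02.

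**Figure D3:**
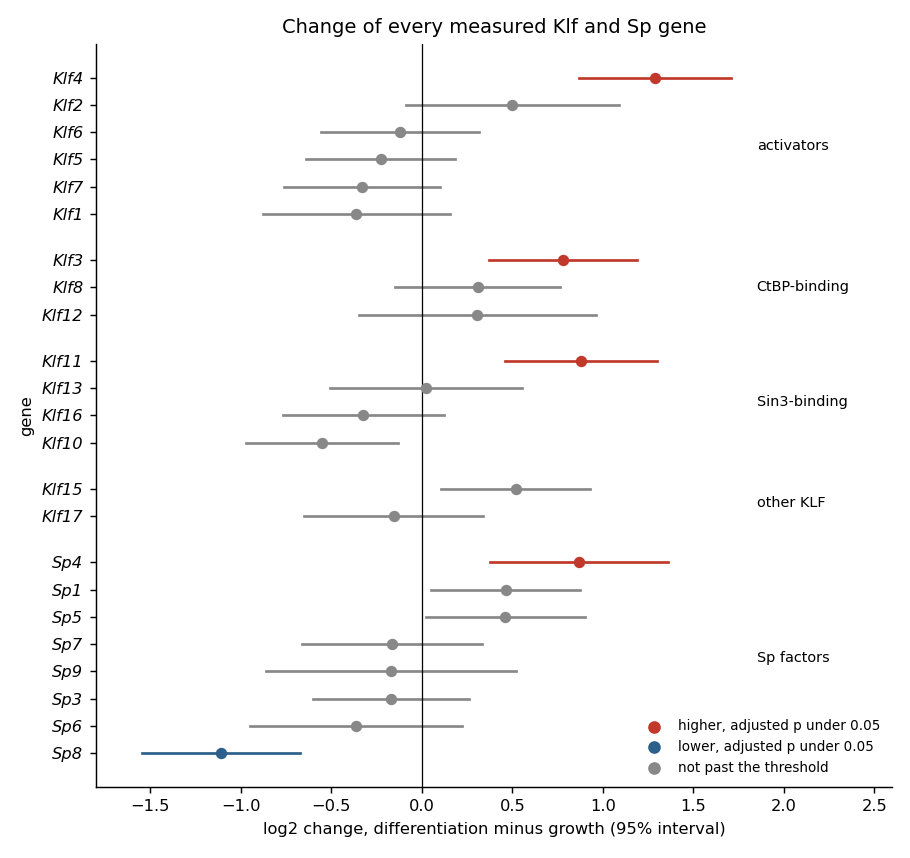
Log2 change (differentiation minus growth) with its 95% interval for the 23 measured Klf and Sp genes, ordered within branches, red where higher and blue where lower past the adjusted threshold and grey otherwise. Klf4, Klf3, Klf11 and Sp4 lie above 0 and Sp8 below, and the branches each hold changes of different size.

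Genes upstream of the KLFs were taken next. Of 7 genes of the ERK5 to MEF2 route, known to induce Klf2 and Klf4, 2 were higher and 0 lower (8.64% and 7.52% of all clusters), with a median change of 0.55. Mef2c, a myogenic MEF2 factor, had intensities of 153 and 139 on the differentiation arrays, against 59.8 and 87.0 on the growth arrays (0.88 ± 0.21 SE, limma adjusted p = 0.0284). Mef2d, at 18.3 and 29.0 on the differentiation arrays and 0.59 and 5.17 on the growth arrays, was also called (1.07 ± 0.22, adjusted p = 0.0159), but its size rests on the offset, at 2.94 with an offset of 1. Only 6.49% of clusters had as low a mean as Mef2d or a lower one, and its signal cannot be told from background. The kinase gene Map3k2 just missed the threshold (0.70 ± 0.20, limma adjusted p = 0.0524). Map3k3, whose value lay the other way (-0.57 ± 0.19, 0.0777), and Mef2a (0.55 ± 0.19, 0.0877) did not pass either. Both called genes lost the call without growth replicate 1 or either differentiation array and with an offset of 1, and Map3k2 passed in 6 of the 12 alternatives (adjusted p of 0.00272 to 0.0448).

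Of 11 genes of TGF-beta signalling, the pathway of Klf10 and Klf11, 4 were higher and 0 lower (8.64% and 7.52% of all clusters), with a median change of 0.58. The signal transducer gene Smad3 had intensities of 1217 and 1131 on the differentiation arrays, against 519.6 and 538 on the growth arrays (1.13 ± 0.18 SE, limma adjusted p = 0.00531). The ligand genes Tgfb2 (1.09 ± 0.18, adjusted p = 0.00691) and Tgfb3 (0.63 ± 0.18, 0.0496) and the receptor gene Tgfbr2 (0.72 ± 0.18, 0.0310) rose in the same limma fit. The receptor genes Tgfbr3 (0.67 ± 0.22, 0.0786) and Tgfbr1 (0.58 ± 0.18, 0.0608) missed the threshold, and so did Smad7, the feedback inhibitor, whose value was negative (-0.53 ± 0.18, 0.0783). The number called was 0 without differentiation replicate 1, 1 without differentiation replicate 2 and 2 without either growth array, so these counts rest on all 4 arrays. With an offset of 1 it was 2, without Tgfb3 and Tgfbr2.

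Of 8 glucocorticoid genes, a list chosen because Klf9 and Klf15 are targets of that hormone, 3 were higher and 1 lower (8.64% and 7.52% of all clusters), with a median change of 0.47. The cortisone-activating enzyme gene Hsd11b1 rose (2.75 ± 0.18 SE, limma adjusted p = 0.000165). The clock gene Per1 had intensities of 361 and 388 on the differentiation arrays, against 115 and 145 on the growth arrays (1.42 ± 0.19, limma adjusted p = 0.00261). Tsc22d3, which encodes the anti-inflammatory protein GILZ, had 539.6 and 571 on the differentiation arrays, against 281 and 293 on the growth arrays (0.91 ± 0.18, 0.0124). Sgk1, a kinase gene also induced by serum, fell (-0.70 ± 0.19, 0.0433). The receptor gene Nr3c1 (0.64 ± 0.22, 0.0850), Fkbp5 (-0.48 ± 0.18, 0.105) and the metallothionein gene Mt2 (0.30 ± 0.18, 0.295) did not pass. The count was 2 without growth replicate 1 or either differentiation array, where Tsc22d3 and Sgk1 lost their calls, and Sgk1 also lost it without growth replicate 2 and with an offset of 1.

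Klf2, Klf4, Klf6 and Klf10 are serum-induced immediate early genes, and 13 others of that class were measured. They went both ways, with 3 higher, 2 lower (8.64% and 7.52% of all clusters) and a median change of -0.03. The nuclear receptor gene Nr4a1 had intensities of 1616 and 1748 on the differentiation arrays, against 285 and 317 on the growth arrays (2.42 ± 0.18 SE, limma adjusted p = 0.000187). The stress factor gene Atf3 (2.05 ± 0.18, 0.000352) and Jun, an AP-1 subunit (0.90 ± 0.19, 0.0169), also rose. Fosl1, another AP-1 subunit, had intensities of 147 and 162 on the differentiation arrays, against 728 and 761 on the growth arrays (-2.16 ± 0.18, limma adjusted p = 0.000282). The transcription factor gene Myc also fell (-1.37 ± 0.18, limma adjusted p = 0.00220). Srf (-0.59 ± 0.18, 0.0572), Egr2 (0.50 ± 0.19, 0.105) and Ier2 (-0.44 ± 0.18, 0.141) did not pass. Jun lost its call without growth replicate 1 or either differentiation array, and with an offset of 1.

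Of 13 cofactor genes listed, 7 were measured, and Hdac1, Ctbp2, Ncor1, Crebbp, Kat2b and Wwp1 had no cluster of their own. None of the 7 passed, beside 16.2% of all clusters (limma, with 1 higher and 0 lower at an unadjusted p under 0.05). Their median change was -0.11. The acetyltransferase gene Ep300, a coactivator, had the smallest p (0.55 ± 0.19 SE, limma adjusted p = 0.0916), followed by the corepressor genes Sap30 (-0.46 ± 0.22, 0.186) and Hdac3 (-0.35 ± 0.18, 0.224). Ep300 and Hdac3 passed when limma's variance prior followed intensity.

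Of 11 genes known as KLF targets in muscle or other tissues, 2 were higher and 2 lower (8.64% and 7.52% of all clusters), with a median change of -0.18. Ckm, a target of Klf3, had intensities of 413 and 395 on the differentiation arrays, against 168 and 176 on the growth arrays (1.16 ± 0.18 SE, limma adjusted p = 0.00454). Cdkn1a, the p21 gene and a target of Klf4 and Klf6, rose (0.80 ± 0.18, 0.0216), and the cyclin gene Ccnd1 fell (-1.89 ± 0.18, 0.000466). Prodh, the proline dehydrogenase gene and a target of Klf15, had 65.5 and 36.1 on the differentiation arrays, against 116 and 129 on the growth arrays (-1.08 ± 0.24, limma adjusted p = 0.0214). The endothelial Klf2 targets S1pr1 (-0.66 ± 0.19, 0.0501) and Nos3 (-0.59 ± 0.27, 0.164) and the fusion gene Npnt, a target of Klf2 and Klf4 in myoblasts (-0.38 ± 0.18, 0.179), did not pass. Cdkn1a and Prodh lost their calls when single arrays were left out (for Cdkn1a growth replicate 1 or either differentiation array, for Prodh either growth array or differentiation replicate 2), and Ckm without differentiation replicate 1. Cdkn1a and Prodh also lost theirs with an offset of 1. S1pr1, just outside the threshold, passed under 6 alternatives.

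**Figure D4:**
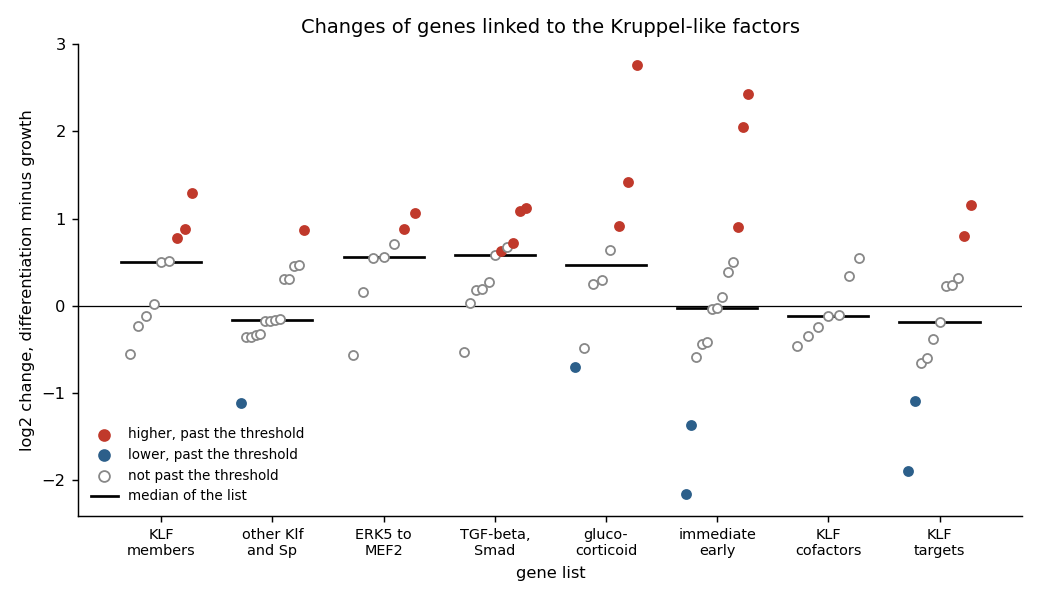
Log2 change (differentiation minus growth) of each measured gene in the Kruppel-like factor family and the 7 linked lists, filled where past the adjusted threshold (red higher, blue lower), with a black line at each median. Medians run from -0.18 for the targets to 0.58 for the TGF-beta list, and the immediate early genes spread from -2.16 to 2.42.

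The genes whose pattern over the 4 arrays was most like that of Klf4 were Naalad2, a peptidase gene, Pdgfc, a platelet-derived growth factor gene, and Casq2, which encodes the calcium store protein calsequestrin. Their Euclidean distances from Klf4, over log2 values centred on each gene's mean, were 0.0306, 0.0458 and 0.0647. Pdgfc had intensities of 2981 and 3535 on the differentiation arrays, against 1331 and 1325 on the growth arrays. With 4 arrays in 2 conditions, such closeness means a similar change and a similar gap between replicates.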

How the data were processed

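Gene expression of 4 C2C12 cultures was measured on Affymetrix arrays. Each value in the authors' deposited table is a linear intensity of 1 transcript cluster on 1 array, made with PLIER and the build mm9, per the submitters' processing notes. How background was corrected and whether arrays were scaled to each other is not stated in any source used here, and the table has no detection calls. Groups came from the sample titles. Symbols came from the platform annotation: 14938 of 16658 clusters had 1 symbol, 989 had several and 731 had none, and 14883 of the identifiers matched a RefSeq gene table (GRCm38.p6), which changed no symbol. Where clusters shared a gene, the brightest stood for it.

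Intensities were analysed as log2(value + 16) with limma 3.58.1 in R 4.3.3 (lmFit, eBayes, two-sided, no covariates, no filter, threshold 0.05). The fit was also run on simulated data with known changes. In that simulation all clusters had the same spread and only clusters brighter than the median changed, so it does not cover dim genes. With 2 arrays per group, precision is limited by their number. Replicate numbers do not pair the samples, since the labels name nothing shared and there are only 2 numbers. The named genes were all members, all other measured Klf and Sp genes, the genes past the threshold in each linked list with up to 3 more by p, 4 myogenic checks and the 3 genes nearest the member that changed most. Members and lists were chosen with earlier results of these data known. Alternatives tried were scaling by quantiles or by medians, a log offset of 1, leaving out clusters with a mean intensity under 50 or among the dimmest 25%, a variance prior that follows intensity, the replicate number as a block, the mean over a gene's clusters and leaving out each array.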

Additional observations from a re-analysis of the deposited data

How the results depend on the processing

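With an offset of 1, 1 Kruppel-like factor member (Klf4) was higher, and 1 other Klf or Sp gene, 0 ERK5 to MEF2 genes, 2 TGF-beta genes, 2 target genes and 1150 clusters in all passed. Klf10 made the count of lower members 1 with a mean intensity of at least 50, with the dimmest 25% left out and with a prior that follows intensity. In each of these 3 settings 7 TGF-beta genes passed. The ERK5 to MEF2 count was 4 with the dimmest 25% left out and 6 with that prior, where 2 cofactor genes and 4362 clusters passed. With an array left out, the counts ran from 1 to 2 for higher members, 0 to 2 for other Klf and Sp genes, 0 to 3 for the ERK5 list, 0 to 2 for the TGF-beta list, 2 to 3 for the glucocorticoid list, 2 to 4 for targets and 751 to 2028 for all clusters. A group left with 1 array was assumed to vary like the other. Changes that turned sign did so only when an array was left out. Over these omissions Klf6 ran from -0.25 to 0.0071, Klf13 from -0.26 to 0.31, Klf12 from -0.11 to 0.72, Klf17 from -0.40 to 0.087, Sp7 from -0.41 to 0.077 and Sp9 from -0.65 to 0.31. None of these passed the threshold in any setting. With the replicate block 2564 clusters passed, as did Klf4, Klf11 and Klf3, and of the named genes only Tgfb3 lost its call (adjusted p = 0.0668). Deviations of same-numbered arrays correlated at -0.04 across clusters. Klf15, Klf1, Klf17, Sp7 and Mef2d were too dim to be tested under the filters. Without detection calls, values near background could not be told from it.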
